A study of Mus musculus with 12 samples.

Results

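Oligodendrocyte precursor cells are dividing glia that arise in the ventral neural tube, spread through the brain and, in the weeks after birth, mature into the cells that wrap axons in myelin. Platelet-derived growth factor keeps the precursors dividing through its receptor, and transcription factors of the OLIG and SOX families hold the lineage together. On leaving the cell cycle, a precursor passes through a short premyelinating stage with its own marker genes before it switches on the myelin genes. In the hindbrain myelination is under way in the second postnatal week, so precursors, committed cells and myelinating cells stand side by side in that tissue.

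The 10 genes described here mark these steps: the surface proteins *Pdgfra* and *Cspg4*, the transcription factors *Olig1*, *Olig2*, *Sox10*, *Myrf* and *Tcf7l2*, and the genes of the committed stage *Gpr17*, *Enpp6* and *Bcas1*. They were chosen by symbol as 10 of the 55418 genes in the count table. The rule itself uses no measured value, but the genes were chosen with earlier results of these data known. Each symbol matched 1 gene, and all 10 passed the filter on low counts in each comparison. The lowest count of any of them in any library was 265, for *Cspg4* in saline male 3, so counting error is small beside the spread between mice.

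RNA-seq counts came from poly-A RNA of the brainstem (medulla and pons) of outbred CFW mice at P15, with 1 library per mouse and no pooling. Morphine mice had received 15 mg/kg morphine subcutaneously 2 times daily from P1 to P14, saline mice had received saline on the same schedule, and tissue was taken 16 h after the last injection. The labels name the brainstem as the tissue, while their extraction text speaks of spinal cord. Each of the 4 groups of sex and treatment held 3 mice. Morphine mice are numbered 1 to 3 (females) and 4 to 6 (males), and saline mice 1 to 3 (males) and 4 to 6 (females). The labels do not give the dam, so litter could not be taken into account, and siblings may sit in 1 group.

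Gene counts summed to between 27850565 and 48097947 per library. Hindbrain markers summed to between 604 and 781 CPM (counts scaled for library size) and forebrain markers to between 7.28 and 13.8 CPM. The library labelled morphine male 6 held *Xist* at 379.9 CPM, where the other males held at most 2.71 CPM and females 547 to 970 CPM. It held *Ddx3y* at 12.8 CPM, where the other males held at least 118 CPM and females at most 0.73 CPM. Its *Eif2s3y*, *Kdm5d* and *Uty* also lay between those of females and of the other males. The sex of this library is therefore in doubt. It was kept as a male under its label, except in the fits that left it out. The libraries also differed in how gene levels went with the GC content of the genes, and levels of several genes described here followed this. The source of that difference was not tested. As a measure, the GC lean of a library is the median log2 deviation of the 20% of tested genes with the most GC, minus that of the 20% with the least. It was 0.77 and 0.98 in saline males 1 and 2 and -1.01 in saline male 3, against -0.57 to 0.51 in the other 9 libraries.

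Per kilobase of annotated exon, *Bcas1* and *Gpr17* of the committed stage stood highest. Mean levels over the 12 mice were 148 ± 17.9 RPKM (CPM per kilobase of exon, SD, n = 12) for *Bcas1*, 82.2 ± 12.2 RPKM for *Gpr17* and 75.7 ± 29.6 RPKM for *Olig1*. *Enpp6* (29.4 ± 3.54 RPKM), *Olig2* (25.6 ± 4.65 RPKM), *Myrf* (21.3 ± 5.63 RPKM) and *Sox10* (20.6 ± 10.6 RPKM) came next, ahead of *Pdgfra* (12.6 ± 1.08 RPKM). *Tcf7l2* (2.09 ± 0.208 RPKM) and *Cspg4* (1.28 ± 0.507 RPKM) were lowest. *Gpr17* and *Olig1* did not differ beyond their spread, and neither did neighbours among *Enpp6*, *Olig2*, *Myrf*, *Sox10* and *Pdgfra*. For comparison, the myelin gene *Mbp* stood at 1754 RPKM. In GRCm38 with GENCODE M21, *Pdgfra* lies at chr5:75152292-75198215, *Cspg4* at chr9:56865033-56899870, *Olig2* at chr16:91225457-91228677, *Olig1* at chr16:91269772-91271933, *Enpp6* at chr8:46986887-47096762 and *Tcf7l2* at chr19:55741820-55933654, all on the plus strand. On the minus strand lie *Sox10* at chr15:79154908-79165240, *Myrf* at chr19:10208272-10240748 and *Bcas1* at chr2:170346991-170427845. Annotated exons include rare isoforms, which lowers the RPKM of genes with many of them.

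**Figure D1:**
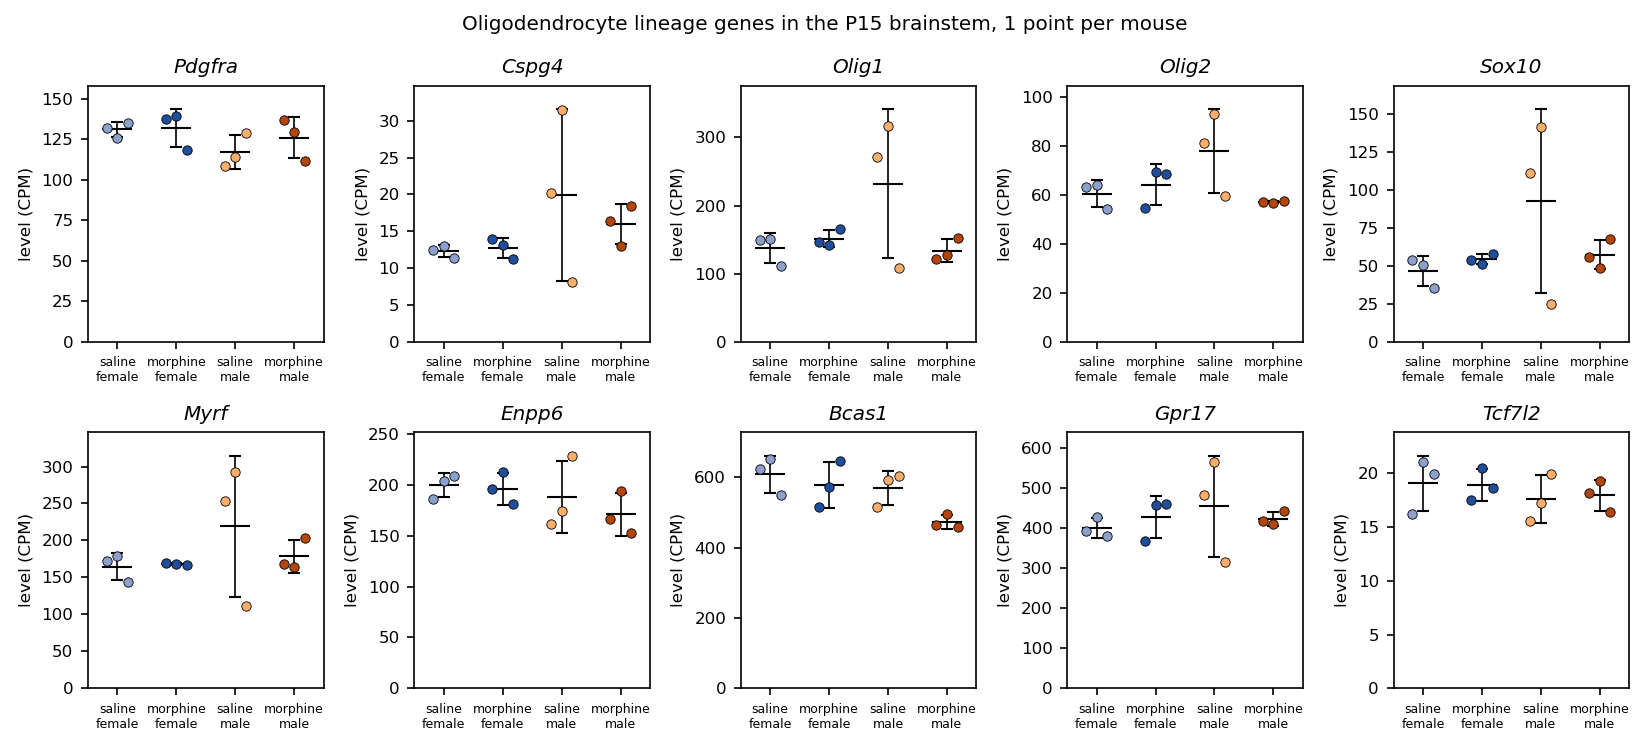
Level of each gene (CPM, vertical axis from 0) in each mouse, by group; horizontal bars are group means and vertical bars SD over 3 mice. Saline males 1 and 2 stand highest and saline male 3 lowest for Sox10 and Myrf, while the morphine males lie close together for Olig2, between 56.4 and 57.4 CPM.

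Promoter windows were read from RefSeq for *Pdgfra*, *Cspg4*, *Olig2*, *Enpp6* and *Tcf7l2*. Those of *Olig2* and *Enpp6* are printed to show their contrast in base composition at the gene start. The *Olig2* window, chr16:91225300-91225456 of GRCm38.p6 on the plus strand, holds the 157 bases in front of the GENCODE gene start and is 66.9% GC. The *Enpp6* window, chr8:46986637-46986886 on the plus strand, is 38.4% GC, below the 10th percentile of 38.8% among 32851 RefSeq windows of 250 bases. Capitals mark the match to ACAATG, a core bound by SOX proteins in general.

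Olig2: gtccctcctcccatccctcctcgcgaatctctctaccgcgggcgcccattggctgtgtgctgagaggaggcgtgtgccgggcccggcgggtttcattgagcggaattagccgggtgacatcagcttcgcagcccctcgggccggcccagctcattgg

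Enpp6: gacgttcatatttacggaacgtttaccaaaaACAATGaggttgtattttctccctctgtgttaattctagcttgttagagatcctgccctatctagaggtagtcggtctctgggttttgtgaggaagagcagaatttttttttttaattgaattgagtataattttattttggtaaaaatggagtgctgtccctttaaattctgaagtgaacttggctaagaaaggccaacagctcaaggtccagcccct

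The letters searched on both strands were CAGCTG (an E-box), ACAAAG and ACAATG (SOX) and TCAAAG (TCF/LEF), of which ACAAAG and TCAAAG share their last 5 letters. ACAATG stood in 10.7% of all windows, ACAAAG in 16.5%, TCAAAG in 13.8% and CAGCTG in 13.0%, and 43.7% held at least 1 of the 4. *Enpp6* held 1 match, 219 bases before the start, and the *Pdgfra* and *Cspg4* windows (54.4% and 60.4% GC) held none. The *Olig2* letters printed hold none, while the RefSeq window runs on for 93 bases past the GENCODE start and has 1 match to ACAATG there, on the opposite strand. The 2 *Tcf7l2* windows (72.8% and 40.8% GC) held 3 matches to the SOX letters. A match is a description of these letters.

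*Pdgfra* encodes the receptor for platelet-derived growth factor on the precursor surface, and it was among the least variable of the 10 genes. Its level was 108, 114 and 129 CPM in saline males and 132, 126 and 135 CPM in saline females. Morphine females held 138, 139.7 and 119 CPM and morphine males 137, 129 and 112 CPM. The treatment groups overlapped throughout, and the level ran from the lowest to the highest mouse over a 1.29-fold range. Morphine against saline with the sexes combined gave a log2 fold change of 0.07 (SE 0.08, 95% interval -0.10 to 0.24). In bulk tissue fewer cells of a type and less RNA per cell cannot be told apart, here or for the other genes.

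*Cspg4*, the gene for the NG2 proteoglycan of precursors and pericytes, was far less even. Saline males held 20.2, 31.4 and 8.12 CPM, which contains the highest and the lowest value of the 12 mice. The other 9 mice held between 11.3 and 18.5 CPM, and the treatments overlapped. The estimate for morphine against saline was -0.12 (SE 0.24, 95% interval -0.63 to 0.39) on the log2 scale. Summed pericyte markers, which share *Cspg4* expression, ranged from 417 to 456 CPM in saline and from 377 to 463 CPM in morphine mice.

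Among the transcription factors, *Olig1* and *Olig2* are neighbouring genes on chromosome 16 that encode related basic helix-loop-helix proteins, *Olig2* being needed to specify the lineage and *Olig1* for its maturation. *Olig1* stood at 272, 316 and 108 CPM in saline males and 121, 128 and 152 CPM in morphine males. In females it stood at 149, 150.1 and 112 CPM with saline and 147, 142 and 166 CPM with morphine. Saline males 1 and 2 were above all other mice and saline male 3 was the lowest of the 12.

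*Olig2* was at 80.9, 93.1 and 59.4 CPM in saline males and at 57.2, 56.4 and 57.4 CPM in morphine males. Females held 63.1, 64.1 and 54.2 CPM with saline and 54.7, 69.2 and 68.5 CPM with morphine. The male treatment groups did not overlap after TMM, the scaling of these levels, although saline male 3 lay only just above the morphine males. The female groups did overlap. *Olig2* and *Bcas1* were the 2 of the 10 genes without overlap in males. For 3 mice against 3 the smallest exact permutation p is 0.1. The share of all tested genes without overlap in males was not counted, so these 2 genes cannot be set against it.

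*Sox10*, a lineage factor that activates *Myrf* and myelin genes, had the widest range of all, 5.65-fold. Saline males held 111, 142 and 25.1 CPM and morphine males 55.6, 48.8 and 67.4 CPM, so the morphine males lay between the saline males. Females held 54.0, 50.4 and 35.4 CPM with saline and 54.0, 51.1 and 57.8 CPM with morphine, which overlapped. Schwann cells also express *Sox10*. Schwann cell markers summed to between 78.6 and 114 CPM in saline and between 56.1 and 176 CPM in morphine mice, and 1 of the 7 Schwann cell markers stayed under 1 CPM in each library.

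*Myrf* encodes the membrane-bound factor that is required for myelin gene expression. It was at 253, 293 and 111 CPM in saline males, 168, 164 and 204 CPM in morphine males, 172, 178 and 144 CPM in saline females, and 169, 168 and 167 CPM in morphine females. Again the saline males held both extremes. *Tcf7l2*, a transcription factor of Wnt signaling that is switched on as precursors differentiate, ran only from 15.5 to 21.1 CPM over all mice, with medians of 18.6 CPM in saline and 18.4 CPM in morphine. Neurons of the thalamus and midbrain use *Tcf7l2* as well, and their markers summed to between 149 and 222 CPM in saline and between 152 and 206 CPM in morphine mice.

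The genes of the committed stage were abundant. *Gpr17* encodes a receptor that marks committed cells and holds back their final maturation, and it was at 482, 565 and 316 CPM in saline males against 419, 410.4 and 444 CPM in morphine males. In females *Gpr17* was at 393, 428 and 381 CPM with saline and 367, 457 and 460.4 CPM with morphine. Both sexes overlapped between treatments, and the saline males again held the extremes. *Enpp6*, a choline phosphodiesterase of newly forming oligodendrocytes, was at 161, 174 and 228 CPM in saline males and 167, 194 and 152 CPM in morphine males. Females held 186, 204 and 209 CPM of *Enpp6* with saline and 196, 212 and 181 CPM with morphine, with overlap in both sexes. For *Enpp6*, saline male 3 was the highest of the 12 mice, the reverse of its place for *Sox10* and *Myrf*.

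*Bcas1* marks premyelinating and early myelinating cells. It stood at 514, 592 and 603 CPM in saline males and at 465, 494 and 459 CPM in morphine males, with no overlap. Females held 624, 651 and 549 CPM with saline and 516, 572 and 646 CPM with morphine, and these overlapped. After TMM all 3 morphine males were under the lowest of the 6 saline mice, and no morphine female was. Relative to total counts the male groups overlapped. Saline male 1 (17257 *Bcas1* counts of 34993070) then lay below morphine male 5 (15079 of 29753432).

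The first comparison asked whether repeated neonatal morphine changed these genes with the sexes combined. A gene was called when its log2 fold change exceeded 0.26 in size and its p before adjustment was under 0.05 in the quasi-likelihood test of edgeR, the limits the study used. None of the 10 genes was called, where 1.19% of all 18608 tested genes were (113 higher and 108 lower, or 181 higher and 68 lower when libraries were scaled by total counts). By p alone the count of the 10 was also 0, and DESeq2 and the exactTest of edgeR called 0. Estimates were higher in 3 and lower in 7 genes, with a median of -0.12 beside -0.02 over all genes. The lowest estimate was that of *Olig1* at -0.31 (SE 0.24, adjusted p = 1.00 by edgeR), and the smallest p that of *Bcas1* (-0.16, SE 0.08, 95% interval -0.34 to 0.02, unadjusted p = 0.0711 and adjusted p = 1.00 by edgeR). *Gpr17* (0.01, SE 0.12) and *Tcf7l2* (0.02, SE 0.10) had estimates near 0.

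In females 0 of the 10 genes passed, where 1.81% of 18109 genes did. DESeq2 and the exactTest also called 0, and 0 had an unadjusted p under 0.05. Estimates ran from -0.08 for *Bcas1* to 0.22 for *Sox10* (SE 0.14, unadjusted p = 0.151 by edgeR), with a median of 0.04 beside -0.01 over all genes. The 95% intervals in females reached no lower than -0.31 (*Bcas1* and *Tcf7l2*) and no higher than 0.53 (*Sox10*).

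In males 1 of the 10 genes passed, where 2.99% of 18166 genes did (349 higher and 194 lower, or 737 higher and 70 lower with scaling by total counts). *Olig2* fell by 0.45 on the log2 scale (SE 0.17, 95% interval -0.86 to -0.04, unadjusted p = 0.0351, adjusted p = 1.00 by edgeR). Its level after TMM was lower in 3 of 3 morphine males than in any saline male. Relative to total counts the male groups were not separated. Saline male 3 held 1938 *Olig2* counts of 33541093, and morphine male 6 held 1945 of 32409065. With scaling by total counts *Olig2* was not called (-0.33, unadjusted p = 0.104 by edgeR), and 0 of the 10 genes were. *Olig1* had a larger and less certain estimate of -0.80 (SE 0.36, 95% interval -1.65 to 0.05, unadjusted p = 0.0626 by edgeR). *Bcas1* was estimated at -0.28 (SE 0.12, unadjusted p = 0.0560 by edgeR) and *Sox10* at -0.69 (SE 0.54, unadjusted p = 0.244 by edgeR). The estimates of 8 of the 10 genes were below 0, with a median of -0.29 beside -0.06 over all genes.

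**Figure D2:**
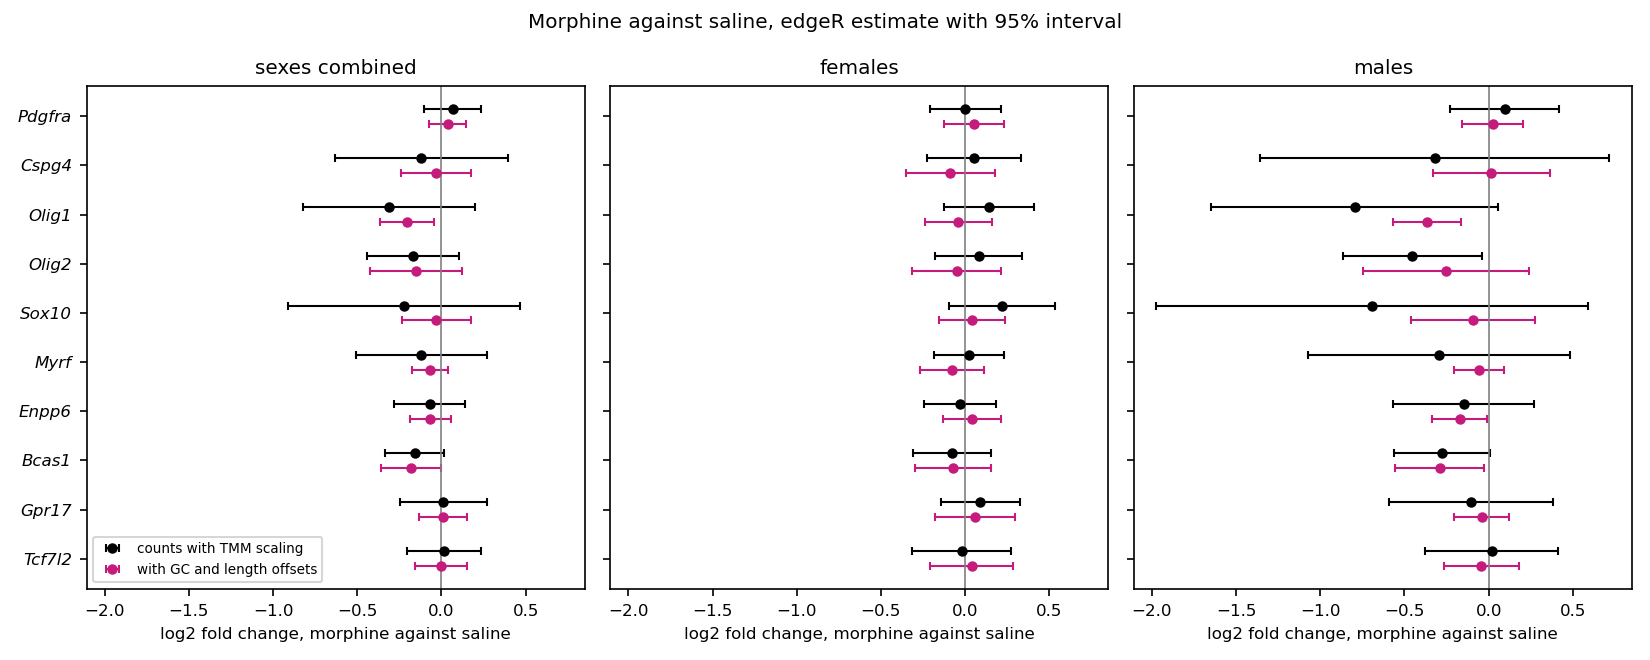
Log2 fold change of morphine against saline (horizontal axis) for each gene, with its 95% interval, in the sexes combined, in females and in males; black, counts with TMM scaling, and pink, the same fit corrected for transcript GC and length. The intervals of Sox10, Cspg4, Olig1 and Myrf in males are wide in black and shorter in pink.

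Single libraries decided the male result. Without saline male 1 the *Olig2* estimate was -0.43 (unadjusted p = 0.0922 by edgeR) and without saline male 2 it was -0.32 (unadjusted p = 0.117 by edgeR), so the call was lost. It was lost as well without any 1 of the morphine males, the largest of those p being 0.140 by edgeR, without morphine male 5. Without saline male 3 the 2 remaining saline males, which both had a high GC lean, were set against the morphine males, and *Olig2* (-0.58, adjusted p = 0.0151), *Olig1* (-1.10, adjusted p = 0.00958), *Sox10* (-1.10, adjusted p = 0.0108) and *Myrf* (-0.58, adjusted p = 0.0285) all fell in edgeR. In that fit, however, 28.6% of all tested genes were called, 5341 of 18652, and 6 of the 10. With the library labelled morphine male 6 left out too, 7548 of 18426 genes and 7 of the 10 were called. Leaving out that library alone gave 0 of the 10, with *Olig2* at -0.47 (unadjusted p = 0.0805 by edgeR). Without saline male 1 the called gene was *Bcas1* (-0.35, unadjusted p = 0.0449 by edgeR).

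The treatment effect was then compared between the sexes with an interaction term, the change in males minus that in females. Here 2 of the 10 genes passed, where 2.94% of 19027 genes did (306 higher and 253 lower, or 569 higher and 132 lower with scaling by total counts). They were *Olig1* (-0.92, SE 0.41, unadjusted p = 0.0426, adjusted p = 0.985 by edgeR) and *Olig2* (-0.52, SE 0.22, unadjusted p = 0.0358, adjusted p = 0.985 by edgeR). Scaling by total counts left 0 of the 10 genes called. *Sox10* had an estimate of -0.89 (SE 0.60) that did not pass. The *Olig1* interaction was called in 4 of the 12 fits that left out 1 mouse each, those without saline male 3, saline female 4, saline female 5 or morphine male 6, and its p ran up to 0.123 by edgeR, without saline male 2. The *Olig2* interaction was also called in 4 of 12, those without saline male 3, saline female 4, saline female 5 or morphine female 1, with p up to 0.0973 by edgeR, again without saline male 2.

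Males and females, treatments combined, differed in 0 of the 10 genes at both thresholds, where 3.94% of 18608 genes passed. *Bcas1* was lower in males by an amount below the fold limit (-0.20, SE 0.08, unadjusted p = 0.0272, adjusted p = 0.734 by edgeR). *Cspg4* had the largest estimate but one, 0.50 higher in males (SE 0.24, unadjusted p = 0.0570 by edgeR), and DESeq2 and the exactTest called it (unadjusted p = 0.0377 and 0.0358). In the same comparison 3 of 8 pericyte markers were called higher in males (median 0.26), and 8 of 8 meningeal fibroblast markers had estimates above 0 with 2 called (median 0.37). With offsets for GC and length 0 of the pericyte markers were called (median 0.07) and *Cspg4* was at 0.09. The part of these cells in the *Cspg4* value was not tested. *Sox10* was at 0.52 (SE 0.32, unadjusted p = 0.126 by edgeR).

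How far each gene followed the GC lean of its library was examined next, since the same saline males held the extremes of several genes. Members with GC-rich transcripts went up with the lean. For *Sox10* (61.8% GC) Pearson's r over the 12 mice was 0.98 and Spearman's rho 0.97. The permutation p was 1e-05 for each, the smallest that the permutations can give (both adjusted p = 1e-04 over the 10 genes). *Sox10* is itself among the GC-rich genes that define the lean, so no conclusion is drawn from this p. Without saline males 2 and 3 its r was 0.95. *Myrf* (57.6% GC) had an r of 0.97, *Cspg4* (59.2%) 0.92, *Olig1* (61.1%) 0.88, *Gpr17* (53.4%) 0.86 and *Olig2* (58.5%) 0.69, and without those males these were 0.92, 0.83, 0.81, 0.62 and 0.56.

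Members with less GC went the other way. *Enpp6*, the member with the least GC (42.3%), had an r of -0.84 and a rho of -0.91 (permutation p = 0.00043 and 9e-05, adjusted p = 0.00086 and 0.00045), and r was -0.87 without the same males. *Tcf7l2* (47.3%) had an r of -0.73 and *Pdgfra* (48.1%) of -0.71. *Bcas1* (50.9%) was the member whose level followed the lean least, with an r of -0.23 (permutation p = 0.466, adjusted p = 0.466). The points share library depth and scaling. The lean is drawn from 18608 tested genes but uses only those with the most and the least GC. *Sox10*, *Cspg4*, *Olig1*, *Olig2* and *Myrf* (above 55.05% GC) and *Enpp6* (below 43.37%) lie among these. For these members a low p was therefore likely in advance, and no conclusion is drawn from it.

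Genes close to *Sox10* and *Enpp6* in base composition did the same, and those close to other members did so in part. Among the 335 tested genes within 1% GC of *Sox10* the median r was 0.93, and among the 1429 within 1% of *Enpp6* it was -0.72. Each of the 10 genes except *Sox10* lay between the 10th and 90th percentile of the genes around it in GC, and *Sox10* lay at 0.979, just above its 90th percentile of 0.977. These bands were wide in places, from -0.76 to 0.56 around *Pdgfra*. Median r stood apart from the member around *Pdgfra* (-0.28), *Tcf7l2* (-0.39), *Bcas1* (0.23), *Gpr17* (0.66) and *Olig2* (0.92). It was close to the member around *Cspg4* (0.93), *Olig1* (0.94) and *Myrf* (0.91). Over all tested genes the median r with the lean ran from -0.72 in the 20% with the least GC to 0.90 in the 20% with the most. The median log2 fold change in males was -0.29 among the genes with the most GC and -0.05 among those with the least.

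**Figure D3:**
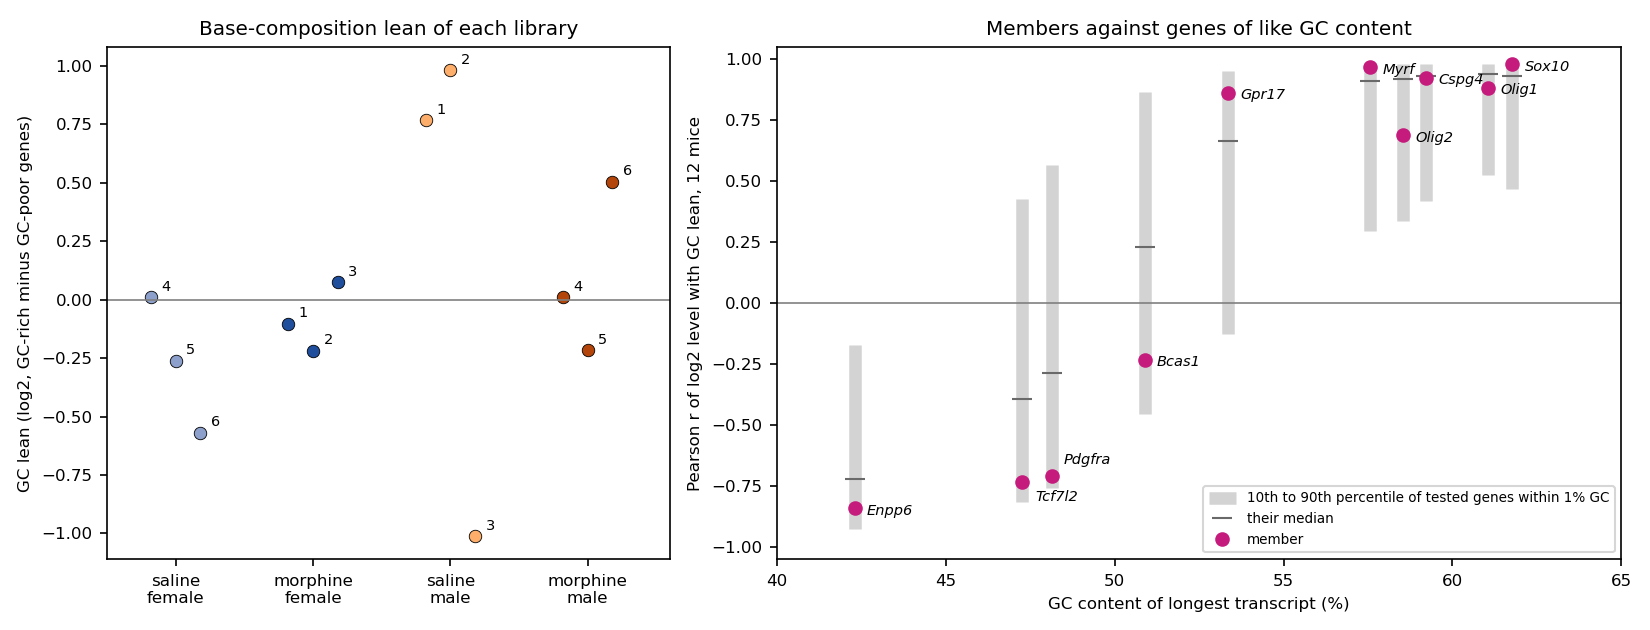
Left, GC lean of each library (log2) by group, labelled with the mouse number. Right, Pearson's r of each member's log2 level with that lean over the 12 mice against the GC content of its longest transcript (%), with the 10th to 90th percentile (grey bar) and the median (dash) of genes within 1% GC; the points climb from Enpp6 at -0.84 to Sox10 at 0.98.

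Loess offsets for transcript GC and exon length, added after the data were seen, took much of this spread out. The SD of the log2 level over the 12 mice went from 0.64 to 0.17 for *Sox10*, from 0.48 to 0.16 for *Cspg4*, from 0.46 to 0.17 for *Olig1* and from 0.35 to 0.08 for *Myrf*. It did not shrink for *Olig2* (0.23 to 0.26) or *Bcas1* (0.18 to 0.21). The adjusted level of *Olig2* was 54.1, 55.1 and 92.0 CPM in saline males and 58.5, 61.3 and 48.5 CPM in morphine males. After the offsets saline male 3 was thus the highest saline male for *Olig2* rather than the lowest, and the male groups overlapped.

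With these offsets *Olig2* was not called in males (-0.25, SE 0.21, unadjusted p = 0.266 by edgeR) and 2 other genes were, where 6.83% of all genes passed in the same fit. *Olig1* fell by 0.37 (SE 0.09, unadjusted p = 0.00319, adjusted p = 0.460 by edgeR) and *Bcas1* fell by 0.29 (SE 0.11, unadjusted p = 0.0335, adjusted p = 0.477 by edgeR). The adjusted level of *Olig1* was 162, 162 and 184 CPM in saline males and 126, 143 and 125 CPM in morphine males, without overlap. *Sox10* went from -0.69 to -0.09 and *Cspg4* from -0.32 to 0.02. *Enpp6* was at -0.17 (unadjusted p = 0.0424 by edgeR), under the fold limit. In the sexes combined 0 of the 10 genes were called with the offsets, where 1.69% of all genes were, *Olig1* (-0.20, unadjusted p = 0.0157 by edgeR) and *Bcas1* (-0.18, unadjusted p = 0.0457 by edgeR) being under the fold limit, and the interaction was called for *Olig1* alone (-0.33, unadjusted p = 0.0190, adjusted p = 0.747 by edgeR).

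The genes most like each member across the 12 mice were picked by Pearson's r over all tested genes. For *Sox10* the nearest was *Mapk8ip1* (r = 0.995, 59.6% GC) and for *Myrf* it was *Inppl1* (r = 0.994, 57.0% GC). *Enpp6* was nearest to *Dlg1* (r = 0.984, 43.8% GC), *Pdgfra* to *Runx1* (r = 0.918, 46.4% GC) and *Bcas1* to the cholesterol synthesis gene *Sqle* (r = 0.965, 48.6% GC). Among the members themselves the 5 GC-rich genes *Cspg4*, *Olig1*, *Olig2*, *Sox10* and *Myrf* had r from 0.65 to 0.99 in their 10 pairs. Several of these rested on saline males. Without the 2 farthest mice, r was 0.15 for *Olig2* and *Myrf*, 0.20 for *Olig2* and *Sox10* and 0.29 for *Cspg4* and *Olig2*, while it was 0.96 for *Sox10* and *Myrf*. Between these and *Pdgfra*, *Enpp6*, *Bcas1* and *Tcf7l2*, r was above 0 in 2 of 20 pairs and ran from -0.74 to 0.35.

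Ratios to *Pdgfra* in the same library do not depend on how libraries are scaled. Those of *Gpr17*, *Enpp6*, *Bcas1* and *Mbp* set a later stage against precursors, while that of *Cspg4* sets another surface gene of precursors and pericytes beside it. The ratio of *Bcas1* to *Pdgfra* was 4.74, 5.18 and 4.67 in saline males and 3.39, 3.82 and 4.10 in morphine males, which did not overlap. In females it was 4.73, 5.16 and 4.06 with saline and 3.75, 4.09 and 5.45 with morphine, which did. With the sexes combined the mean log2 difference was -0.23 (two-sided exact permutation p = 0.08, adjusted p = 0.225 over 5 ratios), and in males it was -0.37 (exact permutation p = 0.1, the smallest that 3 mice against 3 allow). Leaving out 1 mouse at a time, the combined difference ran from -0.17 (exact permutation p = 0.205, without morphine female 1) to -0.30 (exact permutation p = 0.015, without morphine female 3, whose ratio was the highest). The other 10 such p lay between 0.05 (without saline female 6) and 0.175.

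The ratio of *Enpp6* to *Pdgfra* differed by -0.13 on the log2 scale with the sexes combined (exact permutation p = 0.09, adjusted p = 0.225). Those of *Gpr17* (-0.04, exact permutation p = 0.84), *Cspg4* (-0.09, exact permutation p = 0.815) and *Mbp* (-0.25, exact permutation p = 0.52) differed by less than the SD of the log2 ratio among saline mice. In saline males the *Mbp* ratio was 238, 241 and 64.8, saline male 3 lying far below the other 2 mice of its group. The GC leans of these libraries were 0.77, 0.98 and -1.01. With *Olig2* as the denominator the estimates for *Cspg4*, *Gpr17* and *Enpp6* were above 0, that of *Gpr17* being 0.19 (exact permutation p = 0.04, adjusted p = 0.2). Those of *Bcas1* (0.00055, exact permutation p = 1) and *Mbp* (-0.03, exact permutation p = 0.915) were near 0.

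**Figure D4:**
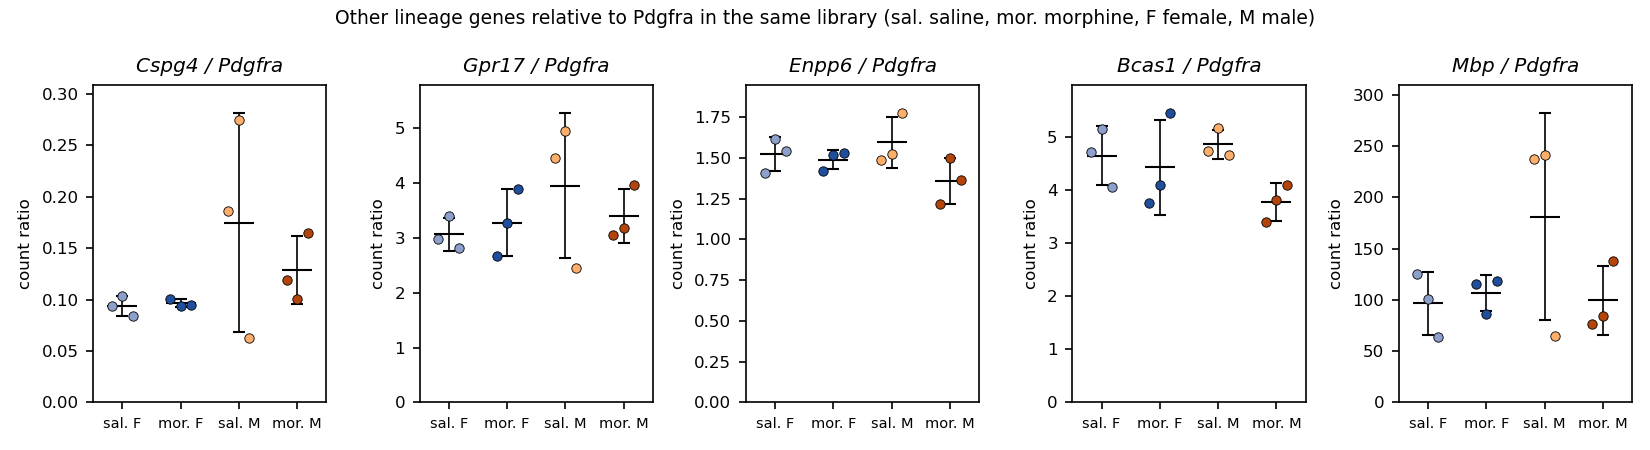
Count ratio of other lineage genes to Pdgfra in the same library (vertical axes from 0), by group, with the mean and SD over 3 mice. The morphine males lie below the saline males only for Bcas1, between 3.39 and 4.10 against 4.67 to 5.18.

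The rest of the lineage was described by gene lists. Of 15 other precursor genes, among them the proteoglycans *Ptprz1* and *Vcan*, 0 passed in the sexes combined, in females or in males, and the median in the combined fit was -0.02, the same as over all genes. Of 15 other genes of committed and newly formed cells, such as the deacetylase *Sirt2* and the kinase *Fyn*, 0 passed in those fits as well, and 13 of 15 estimates in males were below 0 (median -0.13 beside -0.06). With scaling by total counts 9 of these 15 were below 0 (median -0.0064 beside 0.06) and 1 was called higher in males. *Rras2*, a small GTPase of that list, was lower in males than in females (-0.27, SE 0.11, unadjusted p = 0.0302 by edgeR).

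Of 23 other regulators of differentiation, 1 passed. *Id2*, whose product binds and blocks basic helix-loop-helix factors, fell by 0.29 in the sexes combined (SE 0.09, unadjusted p = 0.00517, adjusted p = 1.00 by edgeR) and by 0.53 in males (SE 0.12, unadjusted p = 0.00373 by edgeR). Its level was 92.1, 106 and 102 CPM in saline males and 66.6, 69.4 and 73.9 CPM in morphine males. These groups stood well apart, and its transcript is 45.1% GC. In females it was estimated at -0.09 (SE 0.09), and the interaction passed (-0.41, SE 0.14, unadjusted p = 0.0121, adjusted p = 0.985 by edgeR). With scaling by total counts 0 of the 23 regulators were called in the sexes combined, so the *Id2* call was lost there, and 1 was called in males.

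Of 17 growth factors, Notch ligands and receptors of the lineage, 1 passed in males, *Lpar1*, a lysophosphatidic acid receptor (-0.29, SE 0.12, unadjusted p = 0.0497 by edgeR), and 15 of 17 estimates in males were below 0 (median -0.19 beside -0.06). With scaling by total counts 0 of the 17 were called in males and 9 estimates were below 0 (median -0.07 beside 0.06). In the comparison of the sexes *Fgfr1* was higher in males (0.28, SE 0.13, unadjusted p = 0.0464 by edgeR). Of 12 myelin genes of mature oligodendrocytes, all had estimates below 0 in the sexes combined (median -0.14 beside -0.02) and in males (median -0.28 beside -0.06). *Cldn11*, the tight junction protein of myelin, passed in the sexes combined (-0.29, SE 0.10, unadjusted p = 0.0109 by edgeR) and in males (-0.49, SE 0.13, unadjusted p = 0.00795 by edgeR), and *Mobp*, a structural myelin gene, passed in males near the limit (-0.42, SE 0.18, unadjusted p = 0.0495 by edgeR). None of these had an adjusted p under 0.05. With scaling by total counts 0 of the 12 myelin genes were called in the sexes combined and 1 in males, and 11 and 12 estimates were below 0. With the offsets 4 of 12 were called in males, where 6.83% of all genes were, and without saline male 3 it was 5 of 12, where 28.6% of all genes were.

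Marker lists of other cells moved with the groups in places. Summed astrocyte markers were between 6508 and 7064 CPM in morphine males and between 7653 and 7919.6 CPM in saline males, without overlap, and 8 of 8 astrocyte markers had estimates below 0 in males with 0 called. With scaling by total counts 6 of the 8 were below 0. Neuron marker sums did not overlap in males either, at 5029.9 to 5182 CPM with morphine and 5282 to 6547 CPM with saline, and nor did the sums of the growth factor list, at 1886 to 1965 CPM and 2017 to 2180.2 CPM. All these sums are after TMM, with factors of 1.03 to 1.06 in morphine males and 0.95 to 0.97 in saline males. Without these factors the neuron and growth factor sums overlapped in males, while the astrocyte sums did not. Meningeal fibroblasts express *Pdgfra* too. In females 8 of 8 of their markers had estimates below 0 (median -0.64 beside -0.01). Of these, 3 were called (*Dcn*, *Col3a1* and *Slc6a13*), where 1.81% of all genes were. The sum of the 8 was 163 to 253 CPM with saline and 96.1 to 188 CPM with morphine, while the *Pdgfra* estimate in females was 0.0019. The part of other cells in these values was not tested.

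Some reads cannot be assigned to 1 gene. Exons of *Pdgfra* share 456 bases with the antisense gene *Gm42802*, those of *Bcas1* 440 bases with the antisense gene *Bcas1os1*, those of *Gpr17* 188 bases with *Lims2* on the other strand and those of *Olig1* 157 bases with *Gm15966*. The strand setting of the counting is not given in the sources used here, so these 4 levels may include or lack reads from the partner.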

How the data were processed

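Gene counts were used as the authors deposited them: per the labels and the study's methods, reads were trimmed with Trimmomatic, aligned to mm10 with STAR and counted over exons with featureCounts, giving whole-number counts with no normalization (versions not given in the sources used here). Each of the 12 mice gave 1 library of 100-base single-end reads, sequenced on 1 lane, with 27850565 to 48097947 counts. No 2 libraries were duplicates.

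Genes passing filterByExpr were scaled by TMM and compared by quasi-likelihood F-tests in edgeR 4.0.16 (limma 3.58.1, R 4.3.3), with Benjamini-Hochberg adjustment over all genes tested. The combined fit held sex as a covariate, the sexes were also fitted alone, and the difference between them was an interaction term. The dam, a covariate in the series description, was not used here, since the labels do not give it. Levels are CPM after TMM, and RPKM divides these by exon length. GC content is that of the longest GENCODE M21 transcript. Ratios used exact permutations within sex (SciPy 1.17.1, NumPy 2.4.6, Python 3.11.15) and correlations 100000 permutations. DESeq2 1.42.0, exactTest, other scalings and filters, a replicate block and leaving out each mouse were alternatives, and loess offsets (span 0.5) were chosen once the levels were known. The main edgeR fits of the sexes combined and of males were tested on simulated data before use.

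The 10 genes and all lists were chosen with earlier results of these data known. All 10 are named, with list genes that were called, up to 4 of the highest level in each list, and up to 3 most correlated genes per member. P-values measure the spread between these mice, which may share litters.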

Additional observations from a re-analysis of the deposited data

Results flagged for a closer look

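Among the 6 morphine mice, *Myrf* stood at 204 CPM in morphine male 6, apart from the other 5, which lay between 164 and 169 CPM. The gap to the nearest mouse was 0.872 of the whole range. Chance sets apart about 1 in 20 such groups, and 30 groups were examined. That library had the highest GC lean of the morphine mice, 0.51, and the part of this in the value was not tested.

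The interaction of treatment and sex passed for *Olig1* and *Olig2* before adjustment only. The estimates, males minus females on the log2 scale, were -0.92 for *Olig1* (unadjusted p = 0.0426, adjusted p = 0.985 by edgeR) and -0.52 for *Olig2* (unadjusted p = 0.0358, adjusted p = 0.985 by edgeR). With offsets for transcript GC and exon length these were -0.33 (unadjusted p = 0.0190 by edgeR) and -0.21 (unadjusted p = 0.441 by edgeR). With scaling by total counts neither gene was called. Each was called in 4 of the 12 fits that left out 1 mouse.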

How the results depend on the processing

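Of 950 alternative estimates of the 10 genes, 823 kept their direction and their side of the threshold, 59 changed direction, 42 newly passed and 26 no longer passed. Causes of these changes were not tested. With no filter on low counts, genes called numbered 754 (sexes combined), 1094 (females), 985 (males), 1665 (interaction) and 2321 (male against female), members called 2 in males, 3 for the interaction and 2 between the sexes, and *Gpr17* was at -0.0016 in the combined fit. Without saline male 3 and morphine male 6, genes called were 380 combined, 7548 in males, 5952 for the interaction and 3189 between the sexes, members called 7, 6 and 3 in the last 3 of these, *Enpp6* was at 0.020 combined, 0.11 in males and 0.12 for the interaction, and *Gpr17* at -0.084 combined. Taking each sex from 1 fit of 12 mice called 218 genes in females and 2 members in males. Scaling by total counts called 0 members in males and 0 for the interaction, with *Gpr17* at 0.022 in males. DESeq2 and the exactTest of edgeR called 2 members each in males and 1 each between the sexes, where exactTest called 1199 genes, and the p limit alone called 1 member between the sexes.

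With offsets for GC and length, chosen after seeing the data, 2 members passed in males and 1 for the interaction, with 1240 and 1149 genes called. *Tcf7l2* was then at -0.0035 combined. In females *Cspg4* was at -0.087, *Olig1* at -0.040, *Olig2* at -0.051, *Myrf* at -0.079, *Enpp6* at 0.041 and *Tcf7l2* at 0.039. In males *Cspg4* was at 0.017 and *Tcf7l2* at -0.044. The interaction was -0.031 for *Pdgfra*, 0.11 for *Cspg4*, 0.028 for *Myrf* and -0.088 for *Tcf7l2*. Male against female was -0.12 for *Olig1*, -0.16 for *Olig2*, -0.085 for *Myrf* and -0.062 for *Gpr17*. With *Olig2* as the denominator the ratios differed by 0.13 for *Cspg4*, 0.19 for *Gpr17*, 0.095 for *Enpp6* and 0.00055 for *Bcas1*.

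Leaving out 1 mouse at a time, the combined fit called 0 to 1 members (*Myrf*, without saline male 3) and 177 to 458 genes, with *Cspg4* at -0.29 to 0.11, *Sox10* at -0.40 to 0.015, *Myrf* at -0.26 to 0.0085, *Gpr17* at -0.086 to 0.10 and *Tcf7l2* at -0.029 to 0.055. Females gave 0 to 1 members (*Sox10*, without saline female 4) and 208 to 1482 genes, with *Pdgfra* at -0.042 to 0.072, *Cspg4* at -0.011 to 0.13, *Myrf* at -0.051 to 0.091, *Enpp6* at -0.091 to 0.023 and *Tcf7l2* at -0.13 to 0.062. Males gave 0 to 6 members and 253 to 5341 genes, with *Cspg4* at -0.66 to 0.16, *Enpp6* at -0.25 to 0.057, *Gpr17* at -0.27 to 0.070 and *Tcf7l2* at -0.068 to 0.16. The interaction gave 0 to 6 members and 290 to 4695 genes, with *Cspg4* at -0.75 to 0.12, *Enpp6* at -0.20 to 0.051 and *Tcf7l2* at -0.044 to 0.14. Male against female gave 0 to 3 members and 330 to 3947 genes, with *Olig2* at -0.0020 to 0.16 and *Gpr17* at -0.015 to 0.18. The ratios to *Pdgfra* ran from -0.40 to 0.13 (*Cspg4*), -0.19 to 0.058 (*Gpr17*), -0.17 to -0.091 (*Enpp6*), -0.30 to -0.17 (*Bcas1*) and -0.57 to -0.095 (*Mbp*, without saline male 3 and without saline male 2). The highest counts in males, for the interaction and between the sexes came without saline male 3.

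Mice of the same number shared only a number, their deviations correlating between -0.36 and 0.18. The replicate block called 204 genes and 0 members in the combined fit. With 3 mice per group, the 95% intervals in males ran from -1.97 to 0.59 for *Sox10* and from -1.36 to 0.72 for *Cspg4*, the widest of the 10 genes.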
